A study of Homo sapiens with 15 samples.

Results

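The 42 genes described here encode proteins of the cornified envelope and of the last steps of keratinocyte differentiation. They were taken by name from a table of 61544 genes, with keratins and S100 genes left out of the set. They were counted by RNA-seq in HCC95, a long-established human cell line of lung squamous cell carcinoma (LUSC). The cells had been transfected with a small interfering RNA (siRNA), a short double-stranded RNA that guides cleavage of a matching mRNA. The 5 groups were siNC1, a negative control siRNA, and siKLF5b, siTP63b, siSOX2b and siGRHL2a, each named for the transcription factor it targets and each a single siRNA, with 3 libraries per group and 15 in all. The siRNA was the only difference given between the groups, and the cells came from this one line. The labels do not say whether the libraries of a group came from separate cultures, and the study's general statement that its data come from independent experiments does not name these libraries, so the p-values below measure the spread between these libraries, which may be technical.

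The cornified envelope is the protein shell that replaces the plasma membrane of a dying keratinocyte. Periplakin (PPL), envoplakin (EVPL) and involucrin (IVL) are laid down first as a scaffold. Transglutaminases crosslink it to small proline-rich proteins (SPRR) and later to loricrin and late cornified envelope proteins. Lipids are attached to its outside. The transporter ABCA12 carries such lipids, and lipoxygenases act on them. Filaggrin and its relatives bundle keratin filaments inside the cell, and protease inhibitors such as PI3 and CSTA are crosslinked into the shell. In squamous tumors parts of this program remain active and serve as a sign of how far the cells have differentiated.

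Total counts per library ranged from 15655495 to 34229063. The count columns fell into 2 sets by their names and by their values. In siNC1 and siKLF5b between 49.7% and 50.7% of the genes with 20 to 500 counts had an even count, whereas in siTP63b, siSOX2b and siGRHL2a between 66.1% and 69.0% did. The same held for the counts of 5 or more of the 42 genes themselves, of which 66 of 131 (50.4%) were even in the first set and 201 of 255 (78.8%) in the second. The column set and the knockdown cannot be told apart across the sets, so siKLF5b was compared with siNC1, and siTP63b, siSOX2b and siGRHL2a were compared with each other. Levels are given for all groups as counts scaled to library size by TMM (CPM), and no test was made from one set to the other. Calls of lower or higher required both an adjusted p under 0.05 and a log2 fold change (log2FC) beyond 0.75 in that direction.

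The targeted genes were checked first. KLF5 stood at 123, 108 and 107 CPM in siNC1 and at 71.8, 71.8 and 73.8 in siKLF5b, a log2FC of -0.64 ± 0.06 (SE) with an adjusted p of 5.29e-10, which did not reach the fold threshold. TP63 was at 350, 351 and 389 CPM in siTP63b, lower than in siSOX2b (704, 719 and 647) by a log2FC of -0.93 and than in siGRHL2a (862, 806 and 825) by -1.19. SOX2 was at 9.72, 7.09 and 10.1 CPM in siSOX2b, against 30.0, 31.5 and 27.1 in siTP63b and 18.4, 20.9 and 21.2 in siGRHL2a. SOX2-OT overlaps SOX2 on the same strand and had 118.2% as many counts, which may in part be the same reads. Each of these genes was lowest in the libraries that carry its name within its own set. GRHL2 was also lowest in siGRHL2a, at 90.8, 91.9 and 91.1 CPM, but by little: siTP63b was higher by a log2FC of 0.36 ± 0.05 and siSOX2b by 0.14 ± 0.05. For each targeted gene the exact two-sided permutation test over libraries gave p = 0.1, which is the smallest that 3 against 3 can give.

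Of the 42 genes, 21 lie on chromosome 1. All of these but ECM1 fall within chr1:152106317-153150890 (hg38), a stretch of 1.04 Mb inside a larger region known as the epidermal differentiation complex. That region holds the SPRR genes, IVL, the filaggrin-type genes and the late cornified envelope genes. The other 21 are spread over other chromosomes, among them PPL (chr16:4882507-4960741), SCEL (chr13:77535674-77645263), PI3 (chr20:45174902-45176544), TGM1 (chr14:24249114-24264432), TGM3 (chr20:2296001-2341079), LYPD3 (chr19:43460787-43465608) and ALOXE3 (chr17:8095900-8119047). Promoter sequences of RefSeq (GRCh38.p14) were matched to 33 of the 42 genes by symbol, none of them among CSTA, EVPL, PPL, PI3, CRCT1, SPRR2D, SPRR2E, TGM1 and LY6D. The 250 bases before the RefSeq start, which for KRTDAP lies 5094 bases from the start of the counted gene, were searched on both strands for 5 short motifs, named here after the factors known to prefer such letters. The AP-1 motif TGANTCA was present in 18 of the 33 promoters (54.5%) and in 5.7% of all 18731 promoters matched to a gene of the table. The KLF motif CCNCNCCC was in 16 (48.5%), against 60.9% of all promoters. The p63-type motif ACATGTC was in 1 (3.03%, against 0.966%), the GRHL motif AACNNGTT in 2 (6.06%, against 2.65%) and the SOX motif CATTGT in 3 (9.09%, against 7.41%). Genes of the complex lie close together and some are copies of each other, so these promoters are not independent. A match describes letters and not a bound site.

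The promoters of 4 genes that the comparisons below turn on are printed here, all of which hold a match. That of ALOXE3, also called below, held none of the 5 motifs and is not printed. Of the SPRR promoters searched, those of SPRR2B and SPRR4 held no AP-1 match. The 4 printed show the AP-1 letters of SPRR3 and SCEL beside the KLF letters of LYPD3 and CALML3. Each is read 5′ to 3′ on the strand of the gene and is cut to the bases before both the RefSeq start and that of the counted gene, with the matches in capitals. Those of SCEL (chr13:77535456-77535673, plus strand) and SPRR3 (chr1:153001499-153001746, plus strand) hold 1 AP-1 match each, at -17 to -11 and -168 to -162 from the start. That of LYPD3 (chr19:43465609-43465858, minus strand) holds 3 KLF matches, of which the first pair lie next to each other on opposite strands, and that of CALML3 (chr10:5524711-5524960, plus strand) holds 2.
SCEL: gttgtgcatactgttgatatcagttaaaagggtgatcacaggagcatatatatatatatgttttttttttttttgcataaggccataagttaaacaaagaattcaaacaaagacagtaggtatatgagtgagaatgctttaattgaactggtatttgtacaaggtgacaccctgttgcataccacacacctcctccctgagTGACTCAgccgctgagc
SPRR3: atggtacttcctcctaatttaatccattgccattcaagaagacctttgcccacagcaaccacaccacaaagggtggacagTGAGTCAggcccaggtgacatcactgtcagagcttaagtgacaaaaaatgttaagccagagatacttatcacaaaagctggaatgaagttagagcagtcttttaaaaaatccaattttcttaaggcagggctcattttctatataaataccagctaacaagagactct
LYPD3: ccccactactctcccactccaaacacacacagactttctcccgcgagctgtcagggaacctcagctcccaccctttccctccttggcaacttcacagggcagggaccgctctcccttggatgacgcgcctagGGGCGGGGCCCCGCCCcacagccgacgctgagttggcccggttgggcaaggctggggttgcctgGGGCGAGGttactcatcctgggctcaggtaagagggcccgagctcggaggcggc
CALML3: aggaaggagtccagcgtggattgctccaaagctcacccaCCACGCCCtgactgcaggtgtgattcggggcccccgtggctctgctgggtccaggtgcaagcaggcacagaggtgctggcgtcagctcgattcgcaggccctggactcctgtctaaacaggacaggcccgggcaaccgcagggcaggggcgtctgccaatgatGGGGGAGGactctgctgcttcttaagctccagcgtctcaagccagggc

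A minority of the 42 genes made up nearly all of the signal. PPL alone held 54.7% of their summed CPM in siNC1, and the 5 most abundant genes of each group held between 78.4% and 84.7%. Per kilobase of merged exons, which sets genes of different length on one scale, PPL (22.9 CPM per kb) and CALML3 (22.2) were the highest in siNC1, followed by PI3 (11.9), CSTA (10.8) and SCEL (4.34). Reads in introns were counted too, so these levels are approximate. At the other end, 16 of the 42 genes had 3 counts or fewer in every siNC1 library. Low counts kept 14 of the 42 genes out of the tests, and they are too low to read in any group. CRCT1, LCE3D and LCE3E had 0 counts in all 15 libraries, which allows a level of up to 0.087 CPM in the deepest library and 0.191 CPM in the shallowest, by 3 counts and for counting error only. SPRR2B, SPRR2F, SPRR2G, SPRR4, CALML5, CASP14, CRNN, FLG2, KRTDAP, SBSN and TGM5 reached at most 8 counts in any library. Of the caspase of cornification (CASP14), the late cornified envelope proteins and cornulin (CRNN), nothing can therefore be said.

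**Figure D1:**
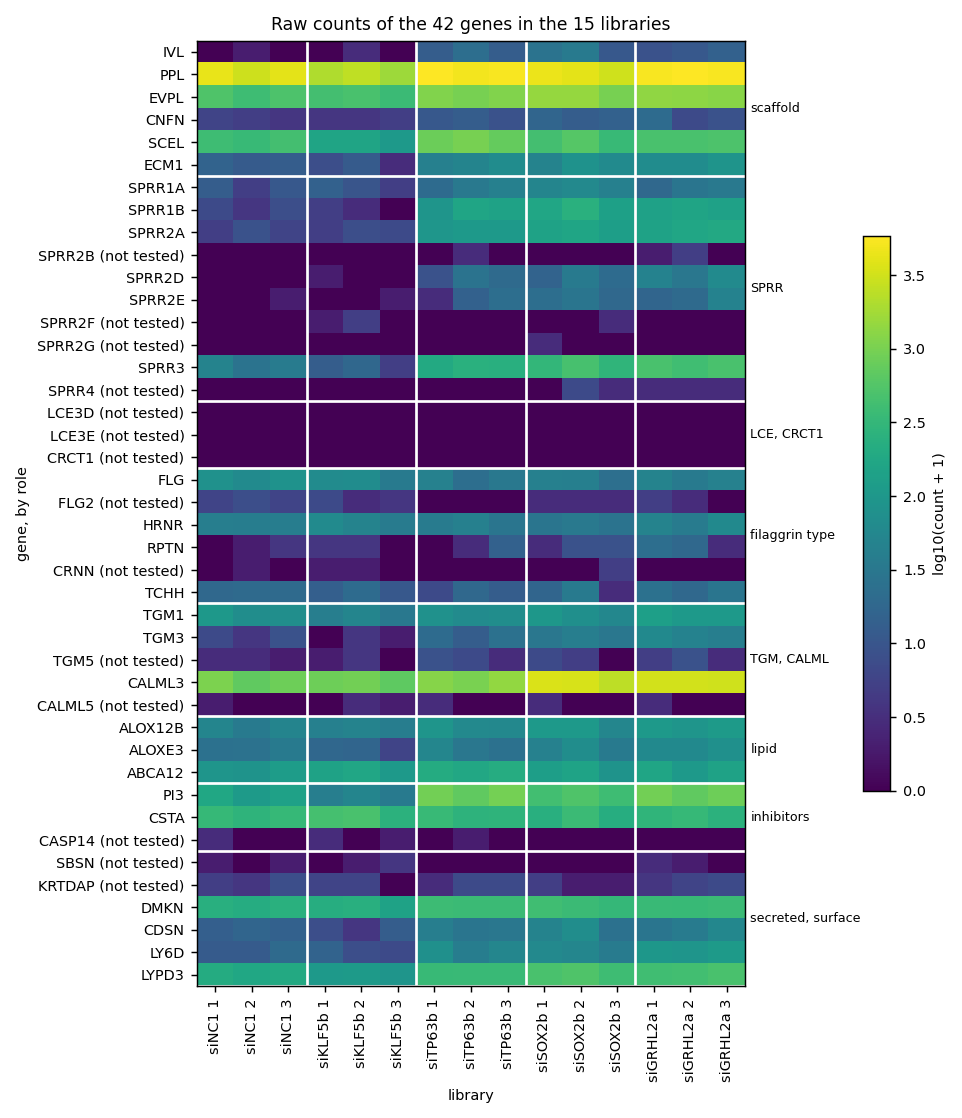
Raw counts of the 42 genes (rows, grouped by role) in the 15 libraries (columns), as log10(count + 1); genes kept out of the tests by low counts are marked. PPL is the brightest row throughout, CALML3 comes next, CRCT1, LCE3D and LCE3E are dark in every library, and IVL, SPRR2D and SPRR2E are dark in siNC1 and siKLF5b.

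The first comparison asked how these genes stood after the knockdown of KLF5. In siKLF5b 7 of the 28 genes tested were lower than in siNC1 and 0 were higher by edgeR's quasi-likelihood test, and at an unadjusted p below 0.05 with no fold threshold 8 were lower and 2 higher, where 18.4% and 15% of all genes tested were. DESeq2, which tested 39 of the 42, also called 7 lower and 0 higher. Testing against a log2FC of 0.75 itself (glmTreat) left 2 of the 7, PI3 and SCEL, and a threshold of 1 left 4, ending the calls on PPL, TGM1 and LYPD3. Of all 25108 genes tested, 1.37% were called lower and 1.89% higher. The 7 were the scaffold proteins PPL and SCEL, the small proline-rich protein SPRR3, the crosslinking enzyme TGM1, the lipoxygenase ALOXE3, the protease inhibitor PI3 and the surface protein LYPD3. They fell to between 30.4% (PI3) and 57.4% (PPL) of the siNC1 level. In bulk libraries fewer cells of a type and less RNA per cell cannot be told apart.

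The scaffold was lower in 2 of its 6 genes. PPL, the plakin that links the envelope to keratin filaments, stood at 195, 164 and 169 CPM in siNC1 and at 95.5, 104 and 104 in siKLF5b. SCEL, sciellin, an envelope precursor protein, was at 17.3, 19.1 and 18.4 CPM in siNC1 and at 7.14, 6.41 and 6.74 in siKLF5b. In neither gene did the groups overlap. The log2FC of PPL was -0.80 ± 0.06 (SE; adjusted p = 2.88e-11) and that of SCEL -1.43 ± 0.12 (adjusted p = 7.62e-11). Without siNC1 replicate 1, the highest of its group, the log2FC of PPL was -0.73 and missed the fold threshold, with an adjusted p of 2.76e-10. EVPL, which pairs with PPL, was not called. It stood at 23.4, 21.6 and 21.9 CPM in siNC1 and at 20.1, 19.6 and 23.2 in siKLF5b, groups that overlap, with an adjusted p of 0.445. CNFN and ECM1 were not called, with adjusted p of 0.896 and 0.178. IVL could not be read here, with at most 2 counts in any library of either group.

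Of the small proline-rich proteins, SPRR3 was lower. It stood at 2.13, 1.43 and 1.51 CPM in siNC1 and at 0.549, 0.699 and 0.254 in siKLF5b, with a log2FC of -1.67 ± 0.31 (adjusted p = 0.000133). SPRR3 is the form typical of internal squamous epithelia such as the esophagus. SPRR1B pointed the same way without passing the test, at 0.266, 0.165 and 0.294 CPM against 0.183, 0.0822 and 0, with an adjusted p of 0.2. SPRR1A and SPRR2A overlapped between the groups, and SPRR2D and SPRR2E never exceeded 3 counts in either group. The whole family summed to 2.61 ± 0.44 CPM (SD, n = 3) in siNC1 and 1.40 ± 0.39 in siKLF5b, so the comparison rests on few counts.

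Among the enzymes, TGM1, the membrane-bound transglutaminase that starts the crosslinking, was lower. Its level was 4.52, 3.79 and 2.98 CPM in siNC1 and 1.83, 2.10 and 1.97 in siKLF5b, a log2FC of -0.93 ± 0.20 (adjusted p = 0.000712) with no overlap. TGM3, a transglutaminase that is activated by proteolysis, stood at 0.266, 0.165 and 0.336 CPM against 0, 0.123 and 0.0636. All siKLF5b libraries were at or under 3 counts. The observed siNC1 mean was 1.70-fold above the floor of 3 counts per library. This bound leaves out the counting error of siNC1, whose libraries had 6, 3 and 8 counts. The adjusted p of TGM3 was 0.0565, so a difference was not established. Without siKLF5b replicate 2 its adjusted p was 0.0355. CALML3, a calmodulin-like protein of epithelia, was at 46.5, 38.2 and 36.2 CPM in siNC1 and at 39.9, 38.0 and 43.7 in siKLF5b, and these ranges overlapped. The second most abundant gene of the set therefore showed no difference beyond the spread between libraries, with an adjusted p of 0.988.

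ALOXE3, the lipoxygenase that acts after ALOX12B on the lipids of the envelope, stood at 1.06, 1.37 and 1.38 CPM in siNC1 and at 0.778, 0.658 and 0.318 in siKLF5b. Its log2FC of -1.06 ± 0.35 had an adjusted p of 0.0258. This was the least secure of the 7 calls: the adjusted p was 0.0691 and 0.0791 without siNC1 replicate 2 or 3, and 0.0569 and 0.123 without siKLF5b replicate 2 or 3. ALOX12B overlapped between the groups. ABCA12 went the other way, at 4.08, 4.67 and 5.08 CPM in siNC1 and 6.72, 6.86 and 6.74 in siKLF5b, a log2FC of 0.56 ± 0.15 (adjusted p = 0.00705) under the fold threshold. CSTA, the cysteine protease inhibitor cystatin A, did so as well, at 14.8, 15.5 and 14.0 CPM against 20.8, 20.1 and 16.4, with a log2FC of 0.38 ± 0.12 (adjusted p = 0.0225). By the adjusted p alone, 7 of the 28 genes were lower and these 2 were higher, where 12.9% and 10.3% of all genes tested were.

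PI3, or elafin, which inhibits neutrophil elastase and is crosslinked into the envelope by transglutaminase, was at 7.85, 6.04 and 5.87 CPM in siNC1 and at 1.83, 2.10 and 2.10 in siKLF5b. The log2FC was -1.72 ± 0.20 (adjusted p = 5.06e-08). PI3 and CSTA thus lay on opposite sides of siNC1, both without overlap. LYPD3, a GPI-anchored surface protein of squamous epithelia, stood at 9.13, 9.60 and 8.05 CPM against 4.99, 4.64 and 5.72, with a log2FC of -0.81 ± 0.13 (adjusted p = 1.11e-05). Without siKLF5b replicate 2 its log2FC was -0.75 and just missed the fold threshold. The surface protein LY6D, dermokine (DMKN) and corneodesmosin (CDSN) were not called. Nor were filaggrin (FLG), hornerin (HRNR) or trichohyalin (TCHH). FLG stood at 3.55, 3.46 and 3.48 CPM against 2.93, 2.75 and 2.16, without overlap but with an adjusted p of 0.2. Repetin (RPTN) could not be read here, with at most 3 counts in any library of either group.

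**Figure D2:**
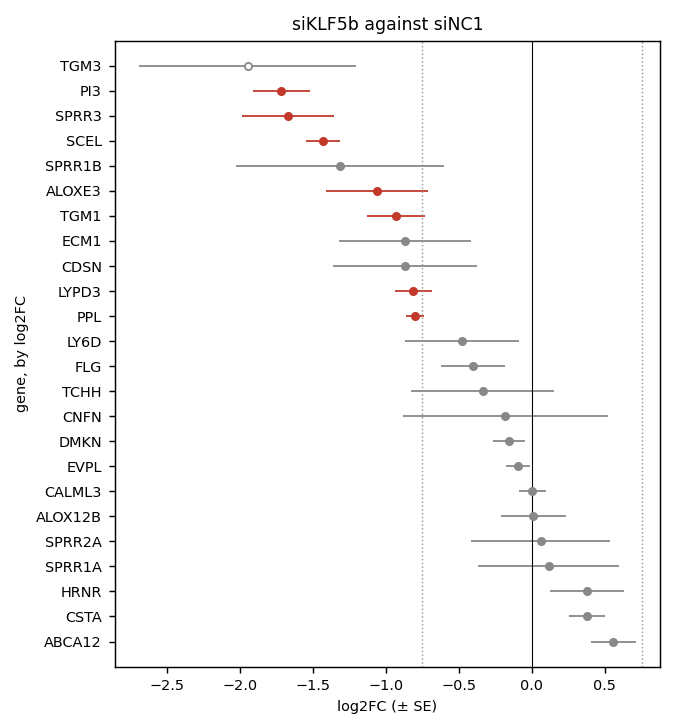
Log2FC of siKLF5b against siNC1 (x axis, with SE bars) for the 24 genes tested whose counts exceeded 3 in at least 1 library; red points passed both thresholds, grey points did not, the open point (TGM3) had siKLF5b at or under 3 counts, and dotted lines mark a log2FC of 0.75 in each direction. The 7 genes called lie between -1.72 (PI3) and -0.80 (PPL), and ABCA12 is the highest at 0.56.

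Of the 24 genes tested that rose above the floor of 3 counts, 11 had every siKLF5b library below every siNC1 library and 2 had every one above. Over all genes tested these shares were 22.5% and 20%. The median log2FC of the 28 genes tested was -0.26, and -0.44 over those 24, with TGM3 at its fitted value or at its bound, while the median of all genes tested was -0.01. The median of the genes tested moved with the low-count filter and the fit, and these settings test other genes: it was -0.15 over the 13 with at least 10 counts in every library, -0.09 over 39 with no filter, -0.10 over 39 by DESeq2 and -0.46 over the 19 tested in a fit of its own column set, and it was -0.40 without siNC1 replicate 1. Of the 7 genes called, 4 had a promoter sequence (ALOXE3, LYPD3, SCEL and SPRR3). The KLF motif was found in 1 of them, LYPD3, and the AP-1 motif in 2, SCEL and SPRR3, as printed above. That of ALOXE3 held neither. Of the 29 other promoters of the set, 15 (51.7%) held the KLF motif and 16 (55.2%) the AP-1 motif. Over all promoters matched to a gene of the table the shares were 60.9% and 5.7%.

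Related gene lists outside the 42 were counted in the same fit, where 1.37% of all genes tested were called lower in siKLF5b and 1.89% higher. Of 11 differentiation keratins and corneodesmosome genes, 9 were tested, 4 were lower in siKLF5b and 0 higher. KRT13, a keratin of internal squamous epithelia and by far the most abundant of them, fell from 2119 ± 181 to 1110 ± 73 CPM (SD, n = 3; log2FC -0.93). KRT80 fell from 72.6 ± 4.5 to 32.0 ± 2.0 CPM, KRT6A from 74.5 ± 5.5 to 30.5 ± 1.5 and KRT16 from 2.48 ± 0.62 to 0.744 ± 0.15. KRT6A and KRT16 have near-identical copies, so their counts are uncertain. Of 20 lipid barrier genes, 14 were tested and 2 were lower: UGCG, the glucosylceramide synthase, fell from 87.5 ± 1.8 to 36.2 ± 0.51 CPM (log2FC -1.27), and CYP4F22, a fatty acid hydroxylase, from 1.05 ± 0.26 to 0.502 ± 0.11 (adjusted p = 0.0324). The call on CYP4F22 was lost without siNC1 replicate 1 or 3 or any of the siKLF5b libraries, with adjusted p between 0.0578 and 0.174, and with no low-count filter (0.0732).

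Of 17 desquamation and filaggrin processing genes, 12 were tested and 1 was lower, the channel-activating protease PRSS8 (12.4 ± 1.4 to 6.78 ± 0.49 CPM). Of 20 regulators of terminal differentiation, transcription factors and the receptors NOTCH1 and NOTCH3, 19 were tested, 3 were lower and 0 higher. NOTCH3 fell from 17.1 ± 1.3 to 9.35 ± 0.25 CPM, FOSL1, a subunit of AP-1, from 5.43 ± 0.061 to 2.99 ± 1.06, and ZNF750, a factor that promotes late differentiation genes, from 3.29 ± 0.20 to 1.78 ± 0.68. FOSL1 had a log2FC of -0.71 without siKLF5b replicate 2 and -0.70 without replicate 3, and ZNF750 one of -0.62 without replicate 2, all under the fold threshold. The basal squamous list moved both ways, with KRT14 lower (55.1 ± 4.4 to 23.1 ± 1.3 CPM) and PERP and KRT15 higher (217 ± 2.3 to 375 ± 4.9 and 264 ± 46 to 472 ± 8.8 CPM) among 12 tested. KRT15 was no longer called without siNC1 replicate 3, with a log2FC of 0.74 and an adjusted p of 0.0518, nor by DESeq2 (adjusted p = 0.127). Of the other 24 genes of the epidermal differentiation complex, loricrin included, 1 was tested (PGLYRP3), and 10 had 0 counts in every library.

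The second set of comparisons placed the knockdowns of TP63, SOX2 and GRHL2 beside each other. They have no control siRNA in their column set, so a difference shows that a pair of knockdowns differ and not which of them departs from untreated cells. The 3 comparisons also share libraries and are given side by side. Against siSOX2b, siTP63b had 1 of the 28 genes lower (CALML3) and 2 higher (PI3 and SCEL), where 2.82% and 3.88% of all genes tested were called. Against siGRHL2a, siTP63b had 4 lower (CALML3, SPRR2D, SPRR3 and TGM3) and 1 higher (SCEL), where 3.21% and 2.18% were. Between siSOX2b and siGRHL2a, 1 was lower in siSOX2b (LY6D) and 1 higher (SPRR1A), where 2.27% and 1.05% were. By the adjusted p alone, siTP63b lay below siSOX2b in 5 of the 28 genes and above it in 4 (15.4% and 16.4% of all genes tested), below and above siGRHL2a in 7 and 3 (13.4% and 13.6%), and siSOX2b lay below and above siGRHL2a in 3 and 3 (12.7% and 11.8%). Tested by glmTreat against 0.75, CALML3 kept its calls in siTP63b against both others, and no other of the 28 genes was called in any of the 3 comparisons. For SCEL in siTP63b its adjusted p was 0.589 against siSOX2b and 0.265 against siGRHL2a. Libraries lay apart, all below or all above, for 7 and 4 genes, 8 and 3 genes, and 4 and 5 genes in the same order, where 18.8% and 19.6%, 17.8% and 17.8%, and 18.6% and 16.6% of all genes tested did. The medians over the 28 genes were -0.37, -0.22 and -0.04 in this order, against 0.00, -0.01 and -0.02 over all genes tested. The first was 0.02 over the 13 genes with at least 10 counts in every library and -0.21 without siSOX2b replicate 2, the second lay between -0.34 and -0.13 and the third between -0.15 and 0.05 when 1 library was left out, so the third has no stable sign.

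CALML3 separated siTP63b from both others by a wide margin. It stood at 38.7, 35.2 and 51.2 CPM in siTP63b, at 108, 103 and 108 in siSOX2b and at 94.0, 97.3 and 94.7 in siGRHL2a. The log2FC of siTP63b was -1.36 ± 0.09 against siSOX2b (adjusted p = 1.29e-13) and -1.19 ± 0.09 against siGRHL2a (adjusted p = 3.08e-12). CALML3 is a gene of a single exon at chr10:5524961-5526771, overlapped in part on the other strand by CALML3-AS1. In every library CALML3-AS1 had between 114.3% and 155.4% as many counts as CALML3. The counts of this gene pair cannot be told apart without strand, and whether the counting used strand was not given. Reads in the overlap may also have been counted for both genes.

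SCEL was higher in siTP63b, at 27.2, 33.1 and 26.4 CPM, than in siSOX2b (13.3, 17.7 and 15.2) and siGRHL2a (13.8, 14.7 and 16.1). The log2FC was 0.91 ± 0.10 (adjusted p = 1.17e-08) and 0.96 ± 0.10 (adjusted p = 4.11e-09). The siSOX2b and siGRHL2a libraries overlapped. PPL was lowest in siSOX2b, at 190, 171 and 192 CPM in siTP63b, 136, 125 and 137 in siSOX2b and 154, 174 and 164 in siGRHL2a. Its log2FC was 0.48 ± 0.06 for siTP63b against siSOX2b and -0.31 ± 0.06 for siSOX2b against siGRHL2a, both under the fold threshold with adjusted p of 2.31e-07 and 0.000303. IVL, a protein of the early scaffold, reached 0.392, 0.748 and 0.427 CPM in siTP63b, 0.795, 1.03 and 0.442 in siSOX2b and 0.232, 0.301 and 0.428 in siGRHL2a. Its siSOX2b libraries all lay above those of siGRHL2a, with a log2FC of 1.26 ± 0.48 and an adjusted p of 0.0551, and 0.0319 without siSOX2b replicate 3. IVL lies inside an unnamed gene on the other strand that had 109.9% as many counts over all libraries. In each library that gene had 0 to 6 counts more than IVL, so the same reads may have been counted for both.

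PI3 was lower in siSOX2b than in the other two groups. It stood at 12.8, 16.3 and 17.3 CPM in siSOX2b, 29.6, 23.6 and 34.0 in siTP63b and 27.1, 20.8 and 26.5 in siGRHL2a. siTP63b was higher than siSOX2b by a log2FC of 0.92 ± 0.12 (adjusted p = 5.09e-07). The log2FC of siSOX2b against siGRHL2a was -0.69 ± 0.12 (adjusted p = 7.45e-05), short of the fold threshold but past it without siSOX2b replicate 3 (-0.76) or siGRHL2a replicate 2 (-0.80). PI3 and SCEL, which were both lower in siKLF5b than in siNC1, both had their highest mean in siTP63b within the second set, though PI3 overlapped there with siGRHL2a. CSTA, in contrast, did not differ beyond its spread among these groups, at 11.3, 9.24 and 9.83 CPM, 7.25, 11 and 9.64, and 8.33, 9.95 and 8.11.

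Of the small proline-rich genes, SPRR3 and SPRR2D were lower in siTP63b than in siGRHL2a. SPRR3 stood at 6.4, 8.43 and 8.40 CPM in siTP63b, 9.60, 14.4 and 12.7 in siSOX2b and 14.1, 12.3 and 14.7 in siGRHL2a, so siTP63b lay below both without overlap. The log2FC was -0.83 ± 0.14 against siGRHL2a (adjusted p = 3.39e-05) and -0.66 ± 0.14 against siSOX2b (adjusted p = 0.000559). The latter missed the fold threshold, except without siSOX2b replicate 1 (-0.82), and the former missed it without siTP63b replicate 1 (-0.70). SPRR2D was at 0.261, 0.884 and 0.677 CPM in siTP63b, 0.459, 1.03 and 0.884 in siSOX2b and 1.33, 0.904 and 1.93 in siGRHL2a. Its log2FC of -1.19 ± 0.42 against siGRHL2a had an adjusted p of 0.0348 and was fragile: without siTP63b replicate 1 or 3, or siGRHL2a replicate 1 or 3, the adjusted p lay between 0.0542 and 0.204, and by DESeq2 it was 0.1. SPRR2A, 2B, 2D, 2E and 2F share 92.5% to 94.2% of their transcript bases pairwise, so reads of these copies may be assigned to one another or, since only uniquely aligned reads were counted, lost, and the values of SPRR2D are uncertain.

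SPRR1A was the only one of the 28 genes called higher in siSOX2b than in siGRHL2a. It stood at 1.53, 1.76 and 1.86 CPM in siSOX2b, 0.522, 0.844 and 0.979 in siGRHL2a and 0.653, 1.09 and 1.5 in siTP63b. The log2FC was 1.13 ± 0.33 (adjusted p = 0.0111), and without siGRHL2a replicate 1, its lowest library, it was 0.91 with an adjusted p of 0.0675. SPRR1B, which shares 82.3% of the aligned transcript bases with SPRR1A, stood at 5.14, 7.46 and 6.10 CPM in siSOX2b and 4.12, 4.70 and 4.34 in siGRHL2a. Its siSOX2b libraries also lay above those of siGRHL2a, with an adjusted p of 0.0464, short of the fold threshold. Summed over the family, SPRR counts came to 17.9 ± 3.9 CPM in siTP63b, 26.9 ± 4.5 in siSOX2b and 26.2 ± 2.6 in siGRHL2a (SD, n = 3). The sum was 2.61 CPM in siNC1, and the part of the knockdowns and that of the column set in this gap cannot be told apart.

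TGM3 was lower in siTP63b (0.653, 0.408 and 0.855 CPM) than in siGRHL2a (1.74, 1.39 and 1.22), and siSOX2b (0.917, 1.21 and 1.33) overlapped with siGRHL2a but not with siTP63b. The log2FC against siGRHL2a was -1.18 ± 0.35 (adjusted p = 0.00984), and the adjusted p was 0.0653 without siTP63b replicate 2 and 0.0557 without siGRHL2a replicate 1. TGM3 overlaps an unnamed gene on the same strand with 129.7% as many counts, so its few counts are uncertain. TGM1 was not called, at 2.61, 2.17 and 2.46 CPM, 3.0, 2.27 and 2.39, and 3.80, 3.10 and 3.24 in siTP63b, siSOX2b and siGRHL2a, where siGRHL2a lay above both others (adjusted p = 0.0436 for siTP63b and 0.105 for siSOX2b). ALOXE3 was not called either, at 1.70, 1.02 and 0.855 CPM, 1.34, 2.06 and 1.5, and 1.74, 1.81 and 2.33. The lipid transporter ABCA12, by contrast, came close: it stood at 6.79, 6.15 and 7.62 CPM in siTP63b against 3.94, 4.55 and 3.71 in siSOX2b and 4.67, 3.23 and 4.56 in siGRHL2a. Its log2FC of 0.74 ± 0.15 and 0.72 ± 0.14 lay just inside the fold threshold, with adjusted p of 0.000155 and 0.000221, and it passed when siTP63b replicate 2 was left out (0.81 and 0.80), as well as without siSOX2b replicate 2 (0.83) or siGRHL2a replicate 1 or 3 (0.82 and 0.80). With upper-quartile scaling factors and all libraries it also passed against siSOX2b (0.754, adjusted p = 0.000117). SNHG31 overlaps ABCA12 on the other strand and had 67.6% as many counts.

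LY6D, a small GPI-anchored protein of stratified epithelia, was lower in siSOX2b (1.80, 1.58 and 1.59 CPM) than in siGRHL2a (2.79, 2.77 and 3.37), with siTP63b spread between 1.33 and 2.48. The log2FC was -0.84 ± 0.24 (adjusted p = 0.0088), and without siGRHL2a replicate 3 it was -0.73 with an adjusted p of 0.052. An unnamed gene on the other strand had 83.1% as many counts as LY6D. LYPD3 was not called in any of the 3 comparisons and stood at 11, 12.2 and 12.5 CPM in siTP63b, 14.8, 16.0 and 17.3 in siSOX2b and 12.0, 12.8 and 14.9 in siGRHL2a. Against siSOX2b its log2FC was -0.43 ± 0.10 (adjusted p = 0.00173), with no overlap. None of the filaggrin-type genes was called, and their summed level was 2.90 ± 0.12, 3.06 ± 0.43 and 3.85 ± 0.55 CPM in siTP63b, siSOX2b and siGRHL2a. FLG, HRNR, FLG2 and CRNN lie inside FLG-AS1, which is counted on the other strand and had 357.4% as many counts as FLG.

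**Figure D3:**
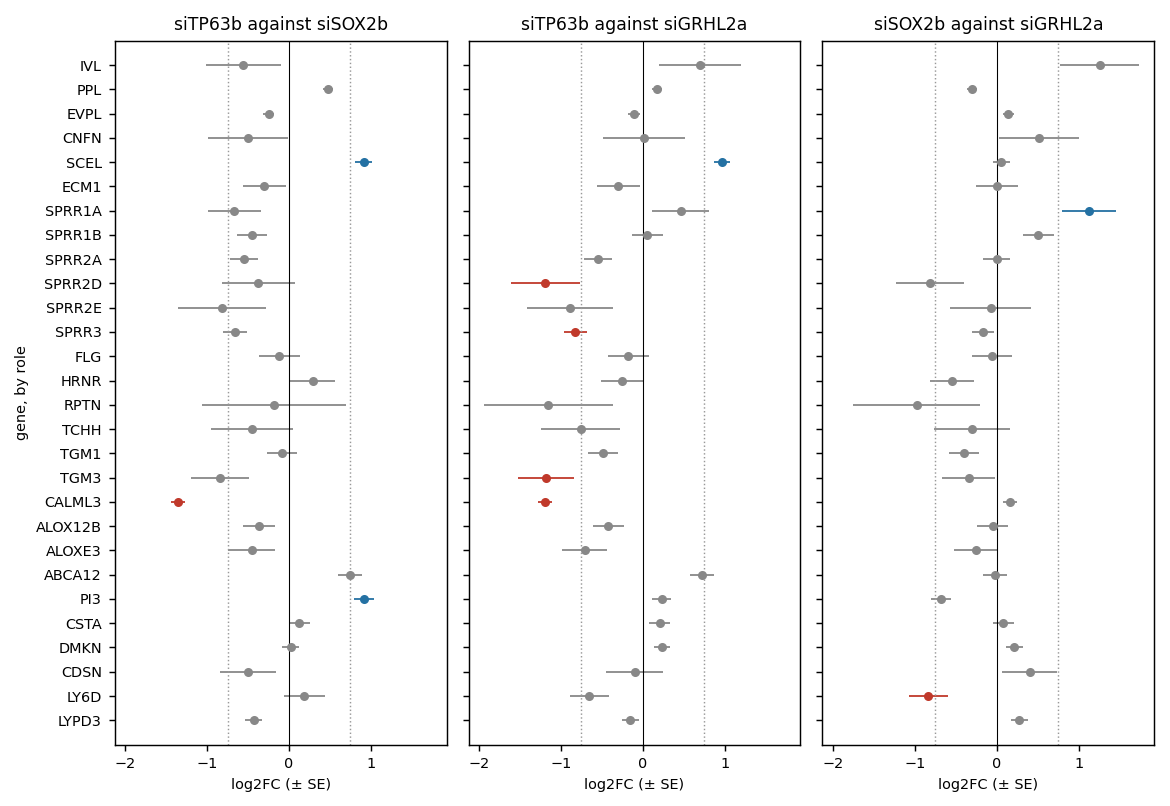
Log2FC (x axis, with SE bars) of the 28 genes tested in the 3 comparisons among siTP63b, siSOX2b and siGRHL2a; red and blue points passed both thresholds (lower and higher in the first-named group), grey points did not, and dotted lines mark a log2FC of 0.75 in each direction. CALML3 lies at -1.36 and -1.19 and SCEL at 0.91 and 0.96 in the comparisons of siTP63b.

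**Figure D4:**
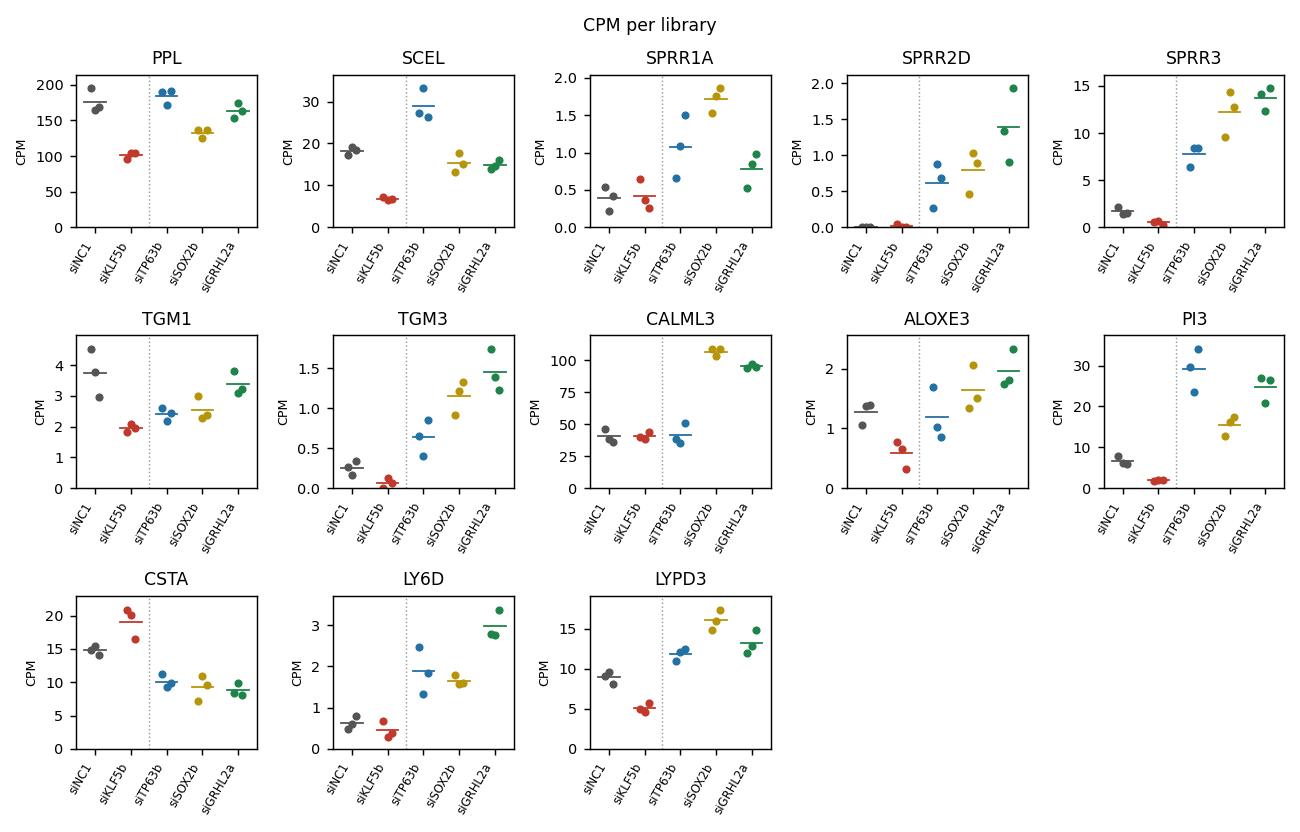
CPM per library (points, y axis from 0) and group mean (lines) of the 12 genes called in any comparison and of CSTA; the dotted line parts the 2 column sets, between which no test was made. PI3, SCEL and PPL drop from siNC1 to siKLF5b, and CALML3 lies between 35.2 and 51.2 CPM in siNC1, siKLF5b and siTP63b while siSOX2b and siGRHL2a lie at 94.0 CPM and above.

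Among all 28 genes tested, 12 were called in at least 1 of the 4 comparisons, 8 of them once, 3 in 2 comparisons (CALML3, PI3 and SPRR3) and SCEL in 3, where 13.2% of all genes tested were called in at least 1. The other 16 were called in none: IVL, EVPL, CNFN, ECM1, SPRR1B, SPRR2A, SPRR2E, FLG, HRNR, RPTN, TCHH, ALOX12B, ABCA12, CSTA, DMKN and CDSN. Several of these were abundant enough to read, such as EVPL, which exceeded 19 CPM in every library, and DMKN, at 9.41 CPM or more.

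The related lists behaved as follows in the second set. The basal squamous list was lower in siTP63b in 3 of 12 genes against siSOX2b and in 4 of 12 against siGRHL2a, where 2.82% and 3.21% of all genes tested were. With no fold threshold, siTP63b had 8 of the 12 lower and 1 higher than siSOX2b, and 11 lower and 0 higher than siGRHL2a. Likewise siSOX2b had 10 lower and 0 higher than siGRHL2a. Over all genes tested these shares were 15.4% and 16.4%, 13.4% and 13.6%, and 12.7% and 11.8%. Integrin ITGA6 stood at 499 ± 39 CPM in siTP63b, 965 ± 44 in siSOX2b and 1039 ± 36 in siGRHL2a, and KRT14 at 64.2 ± 9.4, 144 ± 23 and 185 ± 13 (SD, n = 3). LAMB3, a laminin chain of the basement membrane, was lower in siTP63b than in siGRHL2a (78.8 ± 10.4 against 156 ± 3.9 CPM), and TP63 itself belongs to this list. KRT15 was variable, with 118 ± 64 CPM in siTP63b, 69.4 ± 21 in siSOX2b and 138 ± 42 in siGRHL2a. It was called higher in siTP63b than in siSOX2b and lower in siSOX2b than in siGRHL2a, and by DESeq2 neither was called (adjusted p = 0.171 and 0.0694). The first call was also lost without siTP63b replicate 1 or 3 or siSOX2b replicate 1, with a log2FC of 0.65, 0.41 and 0.54.

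The regulators of terminal differentiation differed in both directions. Of the 19 tested, siTP63b had 1 lower and 3 higher than siSOX2b, and 2 lower and 3 higher than siGRHL2a. Between siSOX2b and siGRHL2a, 2 were lower in siSOX2b and 1 higher. Over all genes tested 2.82% and 3.88%, 3.21% and 2.18%, and 2.27% and 1.05% were called in this order. MAF, a factor that drives late differentiation, stood at 0.115 ± 0.11 CPM in siTP63b, 0.630 ± 0.16 in siSOX2b and 1.42 ± 0.50 in siGRHL2a. The log2FC of MAF was -2.40 for siTP63b against siSOX2b and -3.59 against siGRHL2a. Its siTP63b mean lay near the floor of 3 counts, 0.0979 to 0.107 CPM in those libraries, so the size of these folds is uncertain. Between siSOX2b and siGRHL2a MAF had a log2FC of -1.19 (adjusted p = 0.0127), which was -1.02 and -0.91 without siSOX2b replicate 1 or siGRHL2a replicate 3, with adjusted p of 0.0693 and 0.0991, and in a fit of its own column set alone the adjusted p was 0.0549. EHF, an ETS factor of epithelia, was at 629 ± 31 CPM in siTP63b against 315 ± 20 in siGRHL2a, and CEBPB, CEBPA and PRDM1 were higher in siTP63b than in siSOX2b, at 40.7 ± 6.5 against 20.1 ± 1.3, 2.70 ± 0.29 against 1.04 ± 0.18 and 5.5 ± 1.02 against 2.73 ± 0.37 CPM. FOSL1 was lowest in siGRHL2a, at 12.8 ± 0.83 CPM against 23.4 ± 3.1 in siTP63b and 28.0 ± 0.95 in siSOX2b.

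Fewer genes were called in the remaining lists. KRT1, a keratin of the spinous layer, stood at 0.139 ± 0.14, 0.284 ± 0.25 and 1.08 ± 0.22 CPM in siTP63b, siSOX2b and siGRHL2a, and the protease inhibitor SERPINB3 at 0.178 ± 0.13, 0.260 ± 0.087 and 0.897 ± 0.024, so both were lower in siTP63b and siSOX2b than in siGRHL2a. The siTP63b levels of both rest on few counts. In siSOX2b against siGRHL2a KRT1 was no longer called without siSOX2b replicate 3 or siGRHL2a replicate 2 (adjusted p = 0.104 and 0.0908), and by DESeq2 its adjusted p in siTP63b against siGRHL2a was 0.124. The kallikrein KLK8 was lower in siTP63b than in siSOX2b (2.12 ± 0.53 against 3.99 ± 0.47 CPM). Of the lipid barrier genes, NIPAL4 was lower in siTP63b than in siSOX2b (0.942 ± 0.52 against 2.37 ± 0.70 CPM) and in siGRHL2a (1.72 ± 0.20), and SPTLC3, a subunit of serine palmitoyltransferase, was higher in siTP63b than in siGRHL2a (7.06 ± 0.63 against 3.56 ± 0.89). The call on NIPAL4 against siGRHL2a was lost without siTP63b replicate 2 or 3 or siGRHL2a replicate 2 or 3, with adjusted p between 0.0631 and 0.189, by DESeq2 (0.0577) and in a fit of the libraries of its own column set alone (0.0523). Other genes overlap several of those named in these lists on the other strand and had 233.5% as many counts as NIPAL4, 192.1% as KLK8, 2037.2% as ZNF750, 1111.7% as PRDM1, 131.4% as SERPINB3, 100.8% as KRT80, 76.9% as CEBPA, 70.5% as ITGA6 and 52.5% as CEBPB, so these values are uncertain, since it is not given whether strand was used in counting.

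Squamous markers were high in all groups, and of the markers of other cell types a few were measurable. The 7 squamous markers summed to 9948 CPM in siNC1, 6473 in siKLF5b, 6729 in siTP63b, 8954 in siSOX2b and 11030 in siGRHL2a, most of it KRT5. The sum was lower in siKLF5b than in siNC1, as were the genes called there, while ABCA12 and CSTA lay above. Within the second set it was lowest in siTP63b, where CALML3 and SPRR3 were also lowest but SCEL and ABCA12 highest. The part of these and the following markers in those differences was not tested. The 5 secretory markers summed to at most 0.545 CPM in any group, with MUC5B the highest, and SCGB1A1 had at most 6 counts in a library. The 5 ciliated markers summed to between 25.1 and 31.0 CPM, nearly all of it DNAH5, while FOXJ1 had at most 6 counts, and RSPH1 was called lower in siSOX2b than in siGRHL2a (0.643 against 1.48 CPM). The 6 alveolar markers summed to between 7.48 and 18.0 CPM, nearly all of it AGER (4.65 to 7.45 CPM) and NKX2-1, a transcription factor of lung epithelium, with SFTPC at most at 2 counts. Genes overlapping NKX2-1, RSPH1 and CD68 had 172.2%, 1550.9% and 1508.5% as many counts. NKX2-1 stood at 2.53 CPM in siNC1, 2.43 in siKLF5b, 5.55 in siTP63b, 8.49 in siSOX2b and 10.01 in siGRHL2a, and was called lower in siTP63b than in siGRHL2a (adjusted p = 3.47e-06). The 6 fibroblast markers summed to between 4.02 and 8.91 CPM, led by COL1A1, with DCN at most at 2 counts. PDGFRB, a receptor of mesenchymal cells, was called lower in siKLF5b than in siNC1 (1.23 against 2.24 CPM, adjusted p = 0.00794) and in siTP63b (1.41 CPM) than in siSOX2b (3.23) and siGRHL2a (2.89). The 4 endothelial markers summed to between 4.09 and 14.9 CPM, led by VWF, with PECAM1 at most at 6 counts, and VWF was called lower in siSOX2b than in siGRHL2a (3.55 against 6.42 CPM). The 6 leukocyte markers summed to 34.9 CPM in siNC1 and 22.9 in siKLF5b and to between 29.5 and 34.9 elsewhere, nearly all of it CD68, and CD3E, CD79A, LYZ and FCER1G had at most 2 counts in any library. PTPRC had at most 40 and was called higher in siSOX2b than in siGRHL2a (1.01 against 0.356 CPM, adjusted p = 0.0263).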

How the data were processed

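RNA was poly(A)+ selected, reverse transcribed with random hexamers and sequenced in pairs. Per the labels and the methods, the authors aligned reads with HISAT2 2.2.1 and counted those aligned uniquely per gene with featureCounts 2.0.1 (hg38, Gencode v40), and raw counts were deposited for 15 libraries. The counted length is the whole gene span, introns included. Whether strand was used, and whether both mates of a pair were counted, is not given in the sources used here. For IVL, FLG, HRNR, RPTN and CDSN, which lie inside another gene, the outer gene had no fewer counts in any library. Reads may thus have been counted for both genes of an overlapping pair, which was not tested. Every count column matched a library.

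The 15 libraries were fitted together with edgeR 4.0.16 (R 4.3.3, limma 3.58.1; TMM, filterByExpr, quasi-likelihood F-test, Benjamini-Hochberg over 25108 genes), and SE is the absolute log2FC over the square root of F. The step was tested on simulated data. DESeq2 1.42.0 was an alternative, beside other scalings, filters, thresholds, a replicate block and leaving out each library. Library totals set the precision, and limits from counts cover counting error only. If mates were counted differently in the 2 column sets, their totals and limits are not on one scale. Promoters were read with pandas 2.3.3 and transcripts compared with Biopython 1.88 (Gencode v44).

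The 42 genes, the related lists and the tests were chosen with earlier results of these data known. Values per library were to be given for genes called in any comparison and for the 5 highest per kilobase in siNC1, fold changes for up to 5 others, and up to 4 called genes per related list and comparison with the smallest adjusted p. ABCA12, EVPL, FLG, IVL and SPRR1B were added after their values were seen. A gene of the related lists is not reported here.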

Additional observations from a re-analysis of the deposited data

How the results depend on the processing

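No direction of a named fold change reversed under any alternative run. Requiring at least 10 counts in every library gave a median log2FC over the genes tested of -0.1514 for siKLF5b and 0.0161 for siTP63b against siSOX2b. It left 1 lower call for siTP63b against siGRHL2a and 0 lower and 0 higher for siSOX2b against siGRHL2a, while all-gene calls were 470 lower and 620 higher for siTP63b against siSOX2b, 355 higher for siTP63b against siGRHL2a, and 360 and 154 for siSOX2b against siGRHL2a. This filter tests fewer genes. The siKLF5b median was -0.093 with no filter, -0.4646 from the libraries of its own column set and -0.1006 by DESeq2, settings that test 39, 19 and 39 of the 42 genes. With no fold threshold, 2 of the genes were higher in siKLF5b, 5 were lower and 4 higher for siTP63b against siSOX2b, 7 and 3 against siGRHL2a, and 3 and 3 for siSOX2b against siGRHL2a, and the all-gene calls were 3251 and 2577, 3866 and 4111, 3375 and 3417, and 3185 and 2966. With an absolute log2FC above 1, 4 genes were lower in siKLF5b, 0 higher in siTP63b in either comparison and 0 lower in siSOX2b against siGRHL2a, and the all-gene calls were 165 and 204, 416 and 589, 496 and 330, and 324 and 161. Testing against 0.75 with glmTreat left 2 lower in siKLF5b, 0 higher for siTP63b against siSOX2b, 1 lower and 0 higher against siGRHL2a, and 0 and 0 for siSOX2b against siGRHL2a, with all-gene calls of 37 and 24, 121 and 191, 162 and 123, and 38 and 21. Halving the counts of the second column set gave 2 higher in siSOX2b against siGRHL2a, with IVL added (adjusted p = 0.0452 by edgeR).

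Leaving out 1 library at a time gave 6 to 7 lower and 0 to 0 higher in siKLF5b, 1 to 3 lower and 2 to 3 higher for siTP63b against siSOX2b, 2 to 4 and 1 to 2 against siGRHL2a, and 0 to 2 and 0 to 2 for siSOX2b against siGRHL2a. The medians ranged from -0.4033 to -0.2712, from -0.5157 to -0.206, from -0.3432 to -0.1254 and from -0.1545 to 0.0526, so that of the last comparison changed sign. Same-numbered libraries did not deviate together (r from -0.031 to 0.034), and each correlated best with its own number only in siSOX2b against siGRHL2a. With the replicate number as a block the counts of the 28 genes called were 7 and 0, 1 and 2, 4 and 1, and 1 and 1, as without it, the medians were -0.2712, -0.389, -0.2191 and -0.0096, and KRT15 in siTP63b against siSOX2b (0.7455) was the only named call lost. The low-count filter kept 14 of the 42 genes out of the tests, and 3 of them had 0 counts everywhere.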
